A study of Homo sapiens with 6 samples.

Results

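The 13 mRNAs of the human mitochondrial genome and the nuclear genes that copy, transcribe and process that genome were followed in DND41 cells after treatment with MB1-47. The genes came from a list of 40 symbols, made up of the 13 mitochondrially encoded mRNAs and 27 nuclear genes, and a gene was kept where its mean was at least 10 over the 6 libraries. That rule kept 39 genes of the 13465 that passed the same filter, namely all 13 mitochondrial mRNAs and 26 nuclear genes. The nuclear gene left out was MTERF1, a mitochondrial DNA-binding protein of the mTERF family, which stood at 3.21, 7.98 and 6.04 in the DMSO libraries and at 12.9, 4.47 and 3.50 in the MB1-47 libraries.

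DND41 is an established human line of T-cell acute lymphoblastic leukaemia (T-ALL). RNA was measured in 3 libraries of cells given MB1-47, which the series title calls a mitochondrial uncoupling drug, and in 3 libraries of cells given its solvent DMSO, both for 24 h in RPMI medium with 10% serum. The dose is labelled 4 mM, a unit repeated here as written. Cells were plated in triplicates per the labels, which say no more about how separate the cultures were, so a p-value here weighs the spread among the deposited libraries, and that spread may be technical.

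The mitochondrial genome is a small circle transcribed from both strands into long precursors that are cut into rRNAs, tRNAs and mRNAs, mostly at the tRNAs that lie between them. All its proteins are subunits of the respiratory chain (complexes I, III and IV) or of ATP synthase. Only the mRNA of MT-ND6, a complex I subunit, comes from the light-strand transcript, while all others come from the heavy-strand transcript. Transcription is carried out by the RNA polymerase POLRMT with TFAM and TFB2M, and everything that copies the DNA or cuts, protects, tails and degrades the RNA is imported from the cytosol.

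Values are normalized counts per gene, and depth is unknown because whole reads could not be recovered from them. Library totals of these values ran from 28323706 to 32667526, and Pearson's r across genes, on log2 values, was 0.955 to 0.968 for libraries of the same group and 0.927 to 0.948 for libraries of different groups. Of 13 markers of T cells and T-ALL, 12 were analysed, and their summed level was 95334 to 97437 in DMSO and 60389 to 67461 in MB1-47. Of these 12, 7 were called lower, 0 higher and 5 were not called, where 19.8% of all genes were called lower and 18.3% higher. The largest fall was in CD7 (9248 in DMSO and 2282 in MB1-47, -2.02 ± 0.10), followed by CD1A (-1.86), CD3D (-1.24), LCK (-1.17) and CD3G (-0.96). CD3E (11497 and 10261) and TLX3 (1394 and 1990.1) were not called, and the T-cell markers CD2 (49.2 and 33.8) and CD5 (9.31 and 17.8) were low in both groups. Among markers of other cell types, PECAM1, known from endothelium, was called lower (1168 and 573). The myeloid markers CD14 (9.33 and 0) and LYZ (1.003 and 6.36) and the liver marker ALB (3.10 and 1.72) were below the filter. The part of these marker changes in the results below was not tested. Changes are given as log2(value + 1) differences, MB1-47 minus DMSO, with their standard error (SE), and a gene is called where limma's p-value, adjusted over all 13465 genes, is under 0.05.

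Several mitochondrial genes abut or overlap, which limits how far reads can be assigned to one mRNA. The 3 stretches below are shown because the ratios between these neighbours are reported further on. They come from GENCODE 29 transcripts on GRCh38 and are read 5′ to 3′ on the plus strand of the mitochondrial genome. MT-ATP8 and MT-ATP6 share 46 bases (capitals, chrM:8527-8572) within chrM:8512-8587, MT-ND4L and MT-ND4 share 7 bases (capitals, chrM:10760-10766) within chrM:10740-10786, and MT-ND5 ends where MT-ND6, on the opposite strand, has its 3′ end (capitals mark MT-ND6, chrM:14149-14178) within chrM:14119-14178.
MT-ATP8 and MT-ATP6: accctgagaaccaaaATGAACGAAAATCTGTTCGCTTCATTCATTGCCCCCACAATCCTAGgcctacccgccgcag
MT-ND4L and MT-ND4: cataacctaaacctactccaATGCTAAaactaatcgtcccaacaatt
MT-ND5 and MT-ND6: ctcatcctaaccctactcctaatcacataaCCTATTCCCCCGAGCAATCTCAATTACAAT
Each overlapping pair is translated from a shared mRNA, so their separate values are uncertain, and they are used below as a check on how alike such values are. MT-ND5 and MT-ND6, as annotated, share 0 bases but lie on opposite strands. The libraries are strand-specific per the labels, but whether the quantification used the strand is not given in the sources used here. Without it, reads from MT-ND6 and reads from the opposite strand of its gene cannot be told apart.

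All 13 mitochondrial mRNAs fell with MB1-47, and in each of them every MB1-47 library lay below every DMSO library. Their median change was -0.68, against 0.02 over all genes tested. Among all genes, 19.8% were called lower and 18.3% higher, and 25.2% had all MB1-47 libraries below all DMSO libraries. The sum of the 13 values went from 436216 ± 31820 (SD, n = 3) to 268928 ± 18418. In bulk RNA, less RNA per cell and fewer cells carrying it cannot be told apart, and mitochondrial DNA was not measured. The fall was not of one size, and the 13 changes ran from -0.45 to -1.82.

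**Figure D1:**
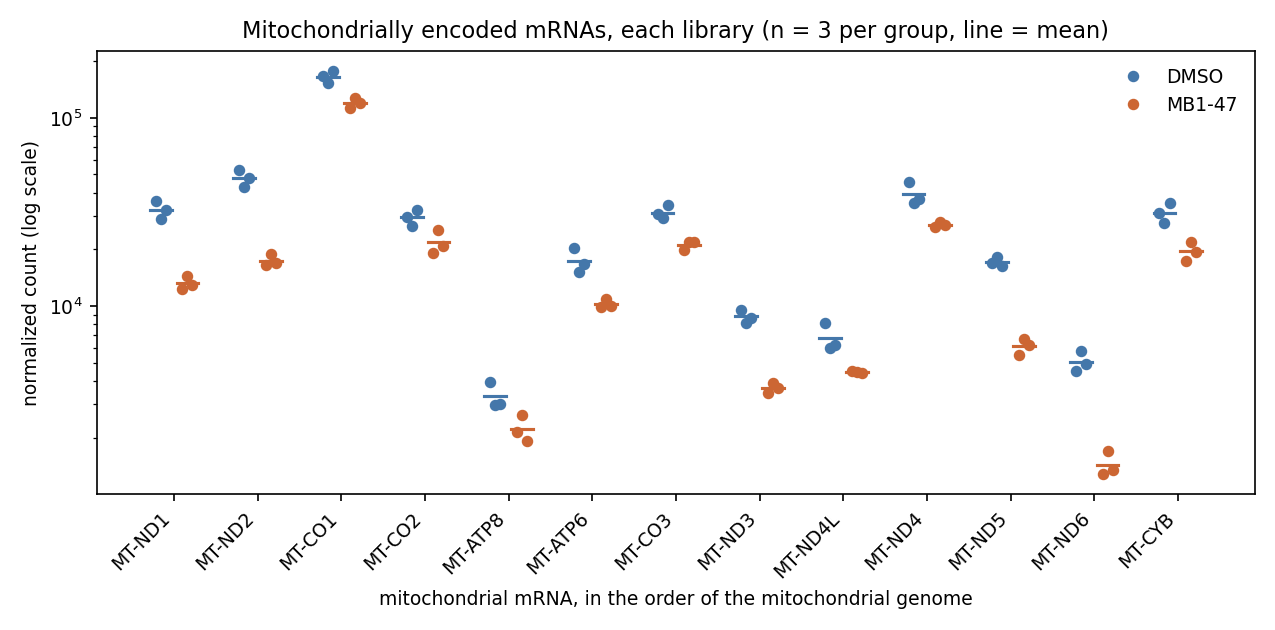
Normalized count (log axis) of the 13 mitochondrial mRNAs in genome order, with one point per library (3 DMSO, 3 MB1-47) and a line at each group's mean. In every mRNA the 3 MB1-47 points lie below the 3 DMSO points, with the widest distance at MT-ND6 (5072 to 1436) and narrow ones at MT-CO1 and MT-CO2.

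The changes of the complex I mRNAs differed widely, from -1.82 in MT-ND6 to -0.53 in MT-ND4. MT-ND6 (chrM:14149-14673, minus strand) was at 4516, 5761 and 4939 in DMSO and at 1279.8, 1688 and 1339 in MB1-47, a change of -1.82 ± 0.13 (SE; limma, adjusted p = 2.1e-06) or 3.54-fold. MT-ND5 (chrM:12337-14148), its neighbour on the other strand, was at 16874, 18151 and 16221 in DMSO and at 5509, 6687 and 6206 in MB1-47 (-1.48 ± 0.09, adjusted p = 9.2e-07). Both subunits sit in the membrane arm of complex I, and in both the lowest DMSO library stood far above the highest MB1-47 library.

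MT-ND1 and MT-ND2 are neighbours near the start of the heavy-strand coding region and also encode membrane subunits of complex I. MT-ND2 was at 52730.4, 42993 and 48018 in DMSO and at 16496, 18801 and 17003 in MB1-47 (-1.46 ± 0.09, adjusted p = 9.7e-07). MT-ND1 was at 35987, 29013 and 32462 in DMSO and at 12362, 14521 and 12929.8 in MB1-47 (-1.29 ± 0.10, adjusted p = 2.8e-06). MT-ND3, which lies between MT-CO3 and MT-ND4L, was at 9584, 8153 and 8665 in DMSO and at 3452, 3896 and 3667 in MB1-47 (-1.26 ± 0.09, adjusted p = 2.2e-06). In these 3 mRNAs the libraries of a group stood close together compared with the distance between the groups.

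The other complex I mRNAs, MT-ND4L and MT-ND4, changed by much less. MT-ND4 was at 45585, 35297 and 37177 in DMSO and at 26415, 27872 and 26949 in MB1-47 (-0.53 ± 0.10, adjusted p = 0.0012). MT-ND4L, with which it shares its mRNA, changed by -0.59 ± 0.11 (adjusted p = 0.0018), and DMSO replicate 1 was the highest library for both.

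In complex IV, cytochrome c oxidase, MT-CO1 and MT-CO2 had the smallest changes of the 13 mRNAs. MT-CO1, its catalytic core subunit and the most abundant of the 13 mRNAs, was at 167008, 152588 and 177423 in DMSO and at 113219, 127918 and 120324 in MB1-47 (-0.46 ± 0.08, adjusted p = 0.0012). MT-CO2, which holds a copper centre that takes electrons from cytochrome c, was at 29579, 26670.03 and 32539 in DMSO and at 19126, 25303 and 20935 in MB1-47 (-0.45 ± 0.11, adjusted p = 0.0080). MT-CO2 had its highest MB1-47 library just below its lowest DMSO library. MT-CO3 changed by -0.57 ± 0.08 (adjusted p = 0.00029). The calls of MT-CO1 and MT-CO2 were lost under quantile normalization, which forces all libraries into a common distribution of values. MT-CO1 then changed by 0.17 (adjusted p = 0.28) and MT-CO2 by -0.19 (adjusted p = 0.24), while MT-CO1 ranked between 2 and 4 among all genes in every library.

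MT-CYB, the only mitochondrial mRNA of complex III, went from 31358 ± 3758 to 19512 ± 2201 (SD, n = 3), a change of -0.68 ± 0.11 (adjusted p = 0.00045). The ATP synthase mRNAs MT-ATP6 and MT-ATP8 changed by -0.75 ± 0.11 (adjusted p = 0.00023) and -0.57 ± 0.14 (adjusted p = 0.0096). The call of MT-ATP8, the shortest of the 13 genes, was lost when limma was run without its intensity trend (adjusted p = 0.065), as was that of MT-CO2 (adjusted p = 0.069).

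**Figure D2:**
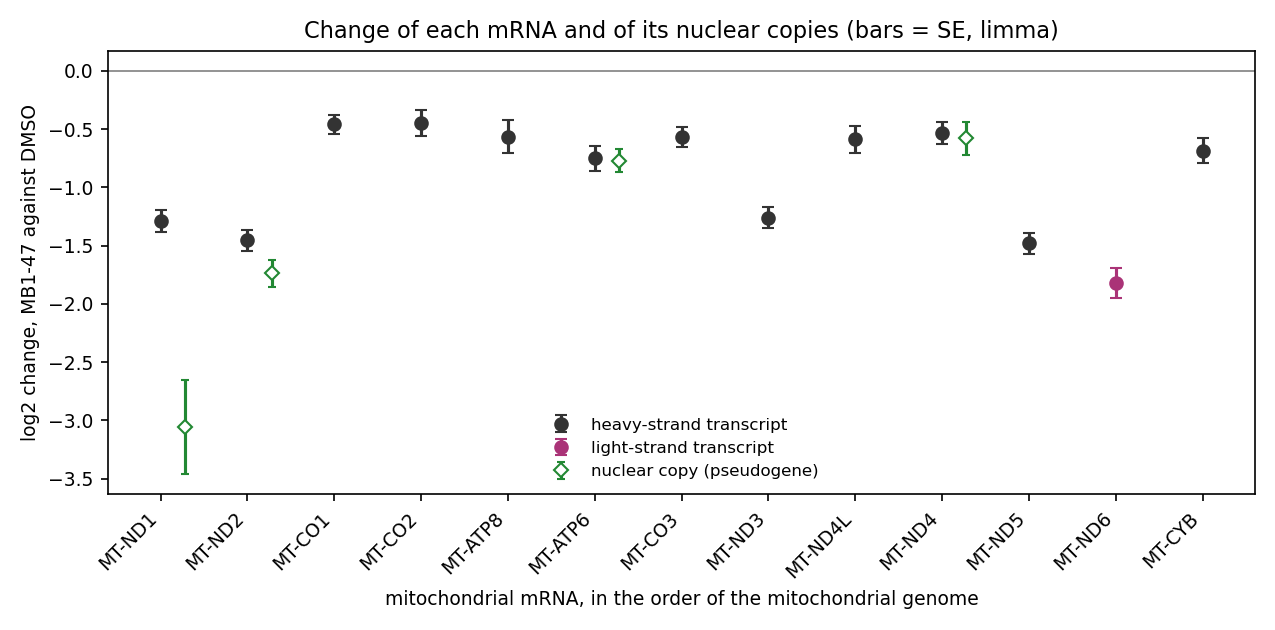
Log2 change of each mitochondrial mRNA, MB1-47 against DMSO, in genome order (circles, bars = SE), with nuclear copies of the genes as open diamonds. MT-ND1, MT-ND2, MT-ND3, MT-ND5 and MT-ND6 lie between -1.26 and -1.82 and the other 8 between -0.45 and -0.75.

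Set in order of size, the changes had their widest step, 0.51, between MT-ND3 (-1.26) and MT-ATP6 (-0.75). On one side stood MT-ND6, MT-ND5, MT-ND2, MT-ND1 and MT-ND3, and on the other the remaining 8 mRNAs from -0.45 to -0.75. This step was seen in the ordered values and has no test of its own. The plot of changes along the genome shows that the mRNAs with the larger falls did not form a single block, since MT-ND3 lies between MT-CO3 and MT-ND4L, both of which changed by less.

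Per kilobase of transcript, the order of the mRNAs in DMSO was MT-CO1, MT-ND2, MT-CO2, MT-CO3, MT-ND1, MT-ND4, MT-CYB, MT-ATP6, MT-ND3, MT-ND4L, MT-ATP8, MT-ND6 and MT-ND5. MT-CO1 stood at 107440.2 ± 8088 per kilobase (SD, n = 3) and MT-ND5 at 9427 ± 542. In that order only the steps from MT-CO1 to MT-ND2, from MT-ND4L to MT-ATP8 and from MT-ATP8 to MT-ND6 separated all libraries, and the other neighbours in rank overlapped. With MB1-47 the order was MT-CO1 (78137 ± 4767), MT-CO2, MT-CO3, MT-ND4, MT-CYB, MT-ND2, MT-ATP6, MT-ND4L, MT-ND1, MT-ATP8, MT-ND3, MT-ND5 and MT-ND6 (2735 ± 421). The libraries of neighbours in rank were then separate after MT-CO1, MT-CO2, MT-CO3, MT-ND4, MT-ND1 and MT-ND3. MT-ND2 moved from rank 2 to rank 6 and MT-ND1 from rank 5 to rank 9. Levels per kilobase of the shortest genes, MT-ATP8 and MT-ND4L, depend most on the effective lengths used in quantification (not given in the sources used here).

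The makeup of the mitochondrial mRNA pool differed between the groups. Complex I mRNAs made up 38.0%, 36.4% and 33.9% of the 13 summed values in DMSO and 27.8%, 27.0% and 27.2% in MB1-47. Complex IV mRNAs made up 49.8%, 52.2% and 53.9% in DMSO and 60.5%, 60.7% and 61.1% in MB1-47. Neither pair of groups overlapped, and the ratio of complex I to complex IV mRNA was 0.763, 0.697 and 0.630 in DMSO and 0.460, 0.445 and 0.445 in MB1-47. The shares of complex III (7.18% and 7.24%) and of ATP synthase (4.74% and 4.65%) overlapped between the groups. Shares of a pool depend on each other, so a higher share of complex IV goes with the lower share of complex I and is not a rise of its mRNAs.

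**Figure D3:**
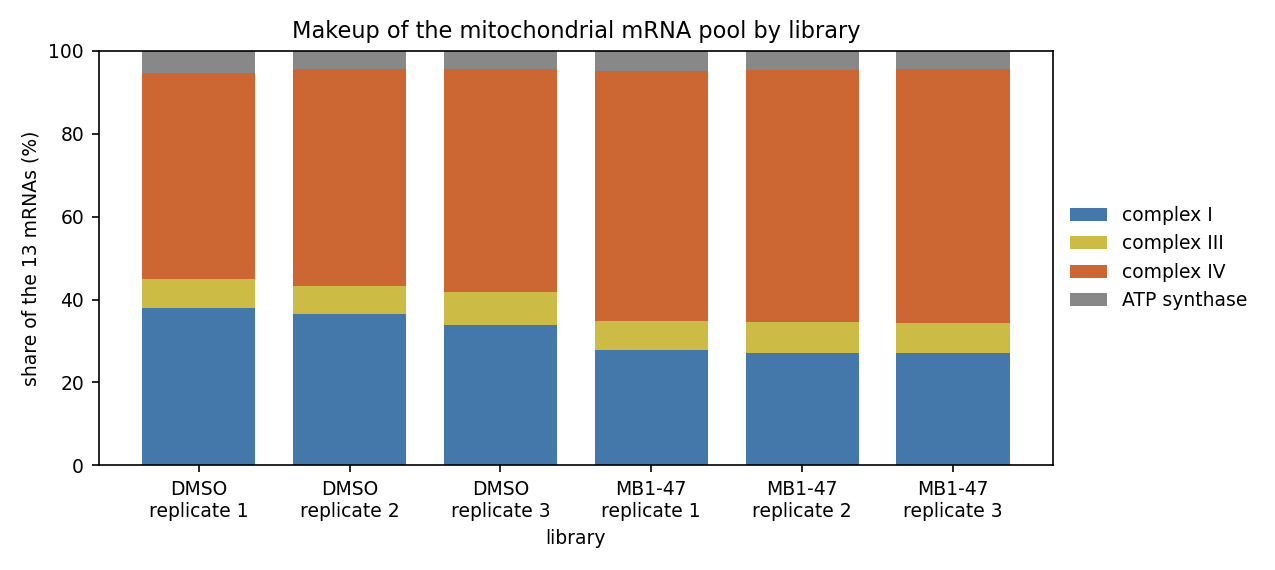
Share (%) of the summed normalized counts of the 13 mitochondrial mRNAs taken by complexes I, III and IV and ATP synthase, one bar per library. Complex I takes 33.9% to 38.0% in DMSO and 27.0% to 27.8% in MB1-47, and complex IV 49.8% to 53.9% and 60.5% to 61.1%.

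Within the pool, MT-ND2 went from 11.0% ± 0.512 to 6.48% ± 0.0991 (SD, n = 3) and MT-CO1 from 38.0% ± 1.30 to 44.8% ± 0.386. MT-ND1, MT-ND3, MT-ND5 and MT-ND6 also had lower shares without overlap, and MT-CO2 and MT-CO3 higher ones. The shares of MT-ATP8, MT-ATP6, MT-ND4L, MT-ND4 and MT-CYB overlapped between the groups. MT-ND4 and MT-ND4L thus did not share the lower pool share of the other complex I mRNAs.

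To compare the strands, the log2 value of MT-ND6 was set against the mean log2 value of the 12 heavy-strand mRNAs in each library. This difference was -2.43, -1.84 and -2.19 in DMSO and -3.20, -3.01 and -3.20 in MB1-47. The MT-ND6 value was thus lower relative to the heavy-strand mRNAs in every MB1-47 library than in any DMSO library. The means of the groups differed by -0.98. Since the use of the strand in quantification is not given, the MT-ND6 values may hold reads from the opposite strand. Against MT-ND5 alone the distance was smaller, with a ratio of MT-ND6 to MT-ND5 of 0.268, 0.317 and 0.305 in DMSO and 0.232, 0.253 and 0.216 in MB1-47. The groups did not overlap there either, but MT-ND5, a heavy-strand mRNA, was nearer to MT-ND6 in its change than to its heavy-strand neighbour MT-ND4. MT-ND6 mRNA is known to carry little or no poly(A) tail, and how RNA was selected for the libraries is not given in the sources used here.

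Ratios of neighbouring mRNAs within a library do not depend on scaling by a common factor, and were tested for all 12 neighbouring pairs with a two-sided exact permutation test. With 3 libraries against 3 the smallest p this test can give is 0.1, so no pair could pass 0.05. In 7 of the 12 pairs the groups did not overlap, each with an exact p of 0.1 (0.171 after Benjamini-Hochberg adjustment over the 12). Of all 13465 genes, 3391 had all MB1-47 libraries below all DMSO libraries and 3248 had all of them above. Separate groups were thus common for single genes, and no such share was obtained for ratios of other genes. The count of 7 is therefore a description only. MT-CO1 over MT-ND2 differed most among the heavy-strand pairs, with log2 ratios of 1.66, 1.83 and 1.89 in DMSO and 2.78, 2.77 and 2.82 in MB1-47, a difference of 0.997 ± 0.07 (SE). MT-ND5 over MT-ND4 differed by -0.95 ± 0.15, MT-ND3 over MT-CO3 by -0.69 ± 0.09 and MT-ND4L over MT-ND3 by 0.67 ± 0.09. MT-ND2 over MT-ND1 differed by only -0.17 ± 0.01, also without overlap. Both pairs that hold MT-ND6 were separate as well, MT-ND6 over MT-ND5 by -0.34 ± 0.10 and MT-CYB over MT-ND6 by 1.14 ± 0.19.

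**Figure D4:**
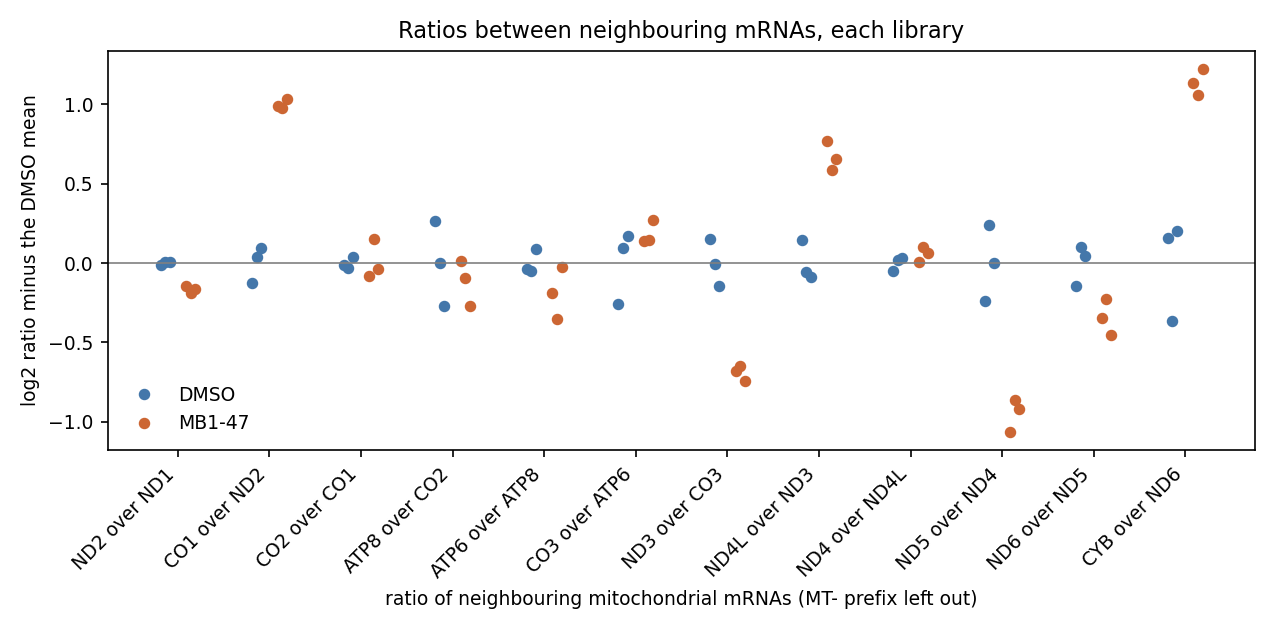
Log2 ratio of each pair of neighbouring mitochondrial mRNAs in each library, minus the mean of the 3 DMSO libraries, in genome order. The groups are separate in 7 of 12 pairs, with the widest distances at CYB over ND6 (1.14), CO1 over ND2 (0.997) and ND5 over ND4 (-0.95).

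In the other 5 pairs the groups overlapped. These were MT-CO2 over MT-CO1 (0.01 ± 0.07, exact p = 1), MT-ATP8 over MT-CO2 (-0.12 ± 0.18, exact p = 0.6), MT-ATP6 over MT-ATP8 (-0.19 ± 0.10, exact p = 0.3), MT-CO3 over MT-ATP6 (0.18 ± 0.14, exact p = 0.3) and MT-ND4 over MT-ND4L (0.06 ± 0.04, exact p = 0.3). Both overlapping gene pairs printed above are among them. The difference of MT-ATP6 over MT-ATP8, which share an mRNA, was no smaller than that of MT-ND2 over MT-ND1 (-0.17 ± 0.01), though its SE was wider. From MT-CO1 to MT-CO3 no neighbouring pair was separate between the groups, which does not show that these mRNAs moved alike. The sign of MT-CO2 over MT-CO1 and of MT-ATP8 over MT-CO2 turned when a single library was left out.

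Copies of mitochondrial genes in the nuclear genome can take reads from the mitochondrial mRNAs, since quantification splits reads between near-identical sequences. Of the copies of mRNA genes, 4 had a mean of at least 50 and all 4 were called lower, where 19.8% of all genes were. These calls are not independent of those of the mRNAs, whose reads the copies may hold. MTND2P28, on chromosome 1 and 98.4% identical to MT-ND2, went from 4450.04 ± 559 to 1331 ± 100 (SD, n = 3), a change of -1.74 ± 0.12 (adjusted p = 1.4e-06). MTATP6P1, 98.5% identical to MT-ATP6, changed by -0.77 ± 0.10 (adjusted p = 0.00014), and MTND4P12 on chromosome 5, 95.8% identical to MT-ND4, by -0.58 ± 0.15 (adjusted p = 0.0088). The changes of MT-ATP6 (-0.75) and MT-ND4 (-0.53) were of about the size of those of their copies.

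MTND1P23 was the copy with the widest distance, at 244, 203 and 211 in DMSO and at 15.1, 42.1 and 25.5 in MB1-47 (-3.06 ± 0.40, adjusted p = 0.00015). Of its 372 bases, 349 were aligned with MT-ND1 and differ from it at 2, and 75.1% of its 31-base words also occur in MT-ND1. The unaligned bases also tell the copy apart and are not shown. The windows around both differences are printed to show how alike the aligned stretch is, with the differing base in capitals (GENCODE 29 transcripts, GRCh38, each read 5′ to 3′ on its own transcript). The first pair is chrM:4018-4078 and chr1:629188-629248, and the second is chrM:4074-4134 and chr1:629244-629304.
MT-ND1, first difference: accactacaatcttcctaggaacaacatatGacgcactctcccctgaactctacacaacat
MTND1P23, first difference: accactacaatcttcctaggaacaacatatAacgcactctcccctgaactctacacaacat
MT-ND1, second difference: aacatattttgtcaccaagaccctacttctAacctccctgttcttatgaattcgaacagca
MTND1P23, second difference: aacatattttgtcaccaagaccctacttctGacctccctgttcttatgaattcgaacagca
The value of MTND1P23 was far below that of MT-ND1 in all libraries, so a small share of MT-ND1 reads assigned differently would move it, and its value is uncertain.

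Among the 26 nuclear genes tested, 16 fell, 1 rose and 9 were not called, with a median change of -0.56. Against the 19.8% of all genes called lower, the genes for RNA cleavage, tailing and decay were called lower in 4 of 4, those for RNA binding and stability in 6 of 9, those for transcription in 3 of 5, those for DNA copying in 2 of 5 and the rRNA and ribosome assembly factors in 1 of 3. All MB1-47 libraries lay below all DMSO libraries in 17 of the 26, where 25.2% of all genes did. Within most roles a gene that fell stood beside one that was not called.

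**Figure D5:**
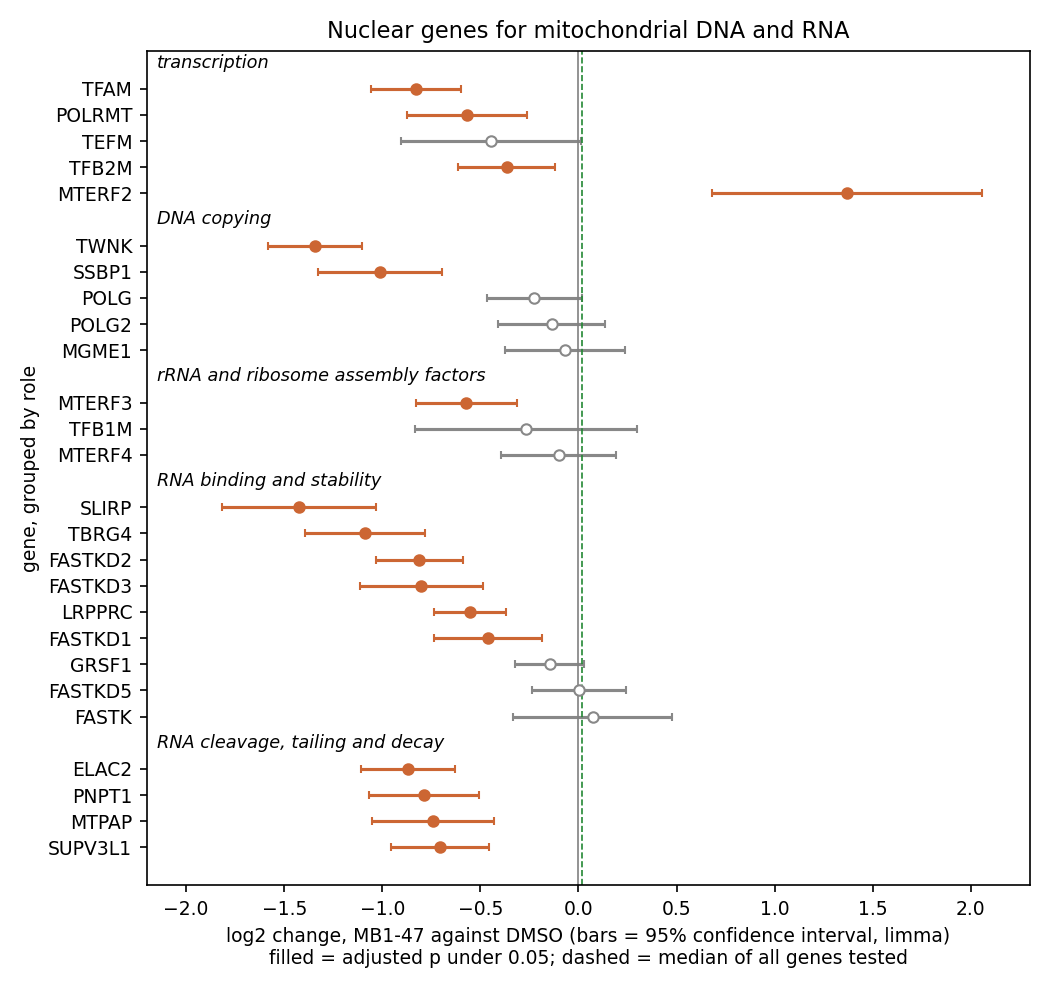
Log2 change of the 26 nuclear genes, MB1-47 against DMSO, grouped by role, with 95% confidence intervals (filled points: adjusted p under 0.05, dashed line: median of all genes). TWNK (-1.34) and SLIRP (-1.42) lie farthest to the left, and MTERF2 (1.37) is the only filled point to the right.

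The genes that start transcription fell. POLRMT, the mitochondrial RNA polymerase, was at 2895, 2456 and 3324 in DMSO and at 1649.7, 2001 and 2204 in MB1-47 (-0.57 ± 0.14, adjusted p = 0.0078), a call lost without the intensity trend (adjusted p = 0.054). TFAM, which bends and packages mitochondrial DNA and recruits the polymerase, was at 7526, 5990.1 and 6978 in DMSO and at 4107, 3509 and 3890.03 in MB1-47 (-0.83 ± 0.10, adjusted p = 0.00011). TFB2M, which helps the polymerase to open the promoter, changed by -0.37 ± 0.11 (adjusted p = 0.025). Its groups did not overlap, but its call was lost without DMSO replicate 1, DMSO replicate 3, MB1-47 replicate 2 or MB1-47 replicate 3 (adjusted p from 0.062 to 0.075) and with equal library totals (adjusted p = 0.098). The elongation factor TEFM was not called (-0.45 ± 0.21, adjusted p = 0.12).

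MTERF2, a member of the same family as MTERF1, was the only nuclear gene of the list that rose. It was at 56.8, 80.1 and 54.8 in DMSO and at 139, 154 and 207 in MB1-47 (1.37 ± 0.31, adjusted p = 0.0051). All 3 MB1-47 libraries lay above all DMSO libraries, although its level is among the lowest of the nuclear genes analysed.

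Genes for copying mitochondrial DNA were split. TWNK, the helicase that unwinds the DNA at the replication fork, was at 2977, 2664 and 3218 in DMSO and at 1099.6, 1173 and 1210.4 in MB1-47 (-1.34 ± 0.11, adjusted p = 4.7e-06). SSBP1, which coats the single strands, was at 2327, 2241 and 2259 in DMSO and at 899.8, 1347 and 1190.4 in MB1-47 (-1.01 ± 0.14, adjusted p = 0.00024). The polymerase that works with them was not called in either subunit, with POLG at -0.22 ± 0.11 (adjusted p = 0.14) and POLG2 at -0.14 (adjusted p = 0.42), nor was the exonuclease MGME1 at -0.07 (adjusted p = 0.74). POLG was called without MB1-47 replicate 1 (-0.33, adjusted p = 0.037).

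The factors that bind and stabilise mitochondrial RNA held some of the larger falls. SLIRP was at 666, 663 and 652 in DMSO and at 225, 220.1 and 299 in MB1-47 (-1.42 ± 0.18, adjusted p = 0.0001). LRPPRC, with which SLIRP forms a complex that protects mitochondrial mRNAs and keeps them polyadenylated, was at 18377, 16834 and 16676 in DMSO and at 11544, 11005 and 12808 in MB1-47 (-0.55 ± 0.08, adjusted p = 0.00035). Both partners fell without overlap.

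The FASTK family, whose proteins act on individual mitochondrial RNAs, did not move as a whole. TBRG4, also known as FASTKD4, was at 2947, 3157 and 3528 in DMSO and at 1260.03, 1832 and 1478 in MB1-47 (-1.09 ± 0.14, adjusted p = 0.00012). FASTKD2, which is needed for the mitochondrial large rRNA, changed by -0.81 ± 0.10 (adjusted p = 9.7e-05), FASTKD3 by -0.80 ± 0.14 (adjusted p = 0.0011) and FASTKD1 by -0.46 ± 0.13 (adjusted p = 0.013). The call of FASTKD1 was lost without MB1-47 replicate 1 (adjusted p = 0.054) and without the intensity trend (adjusted p = 0.053). FASTKD5, which acts at mRNA ends that no tRNA borders, stood at 0.00 (adjusted p = 0.98).

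FASTK and GRSF1 are both known to be needed for MT-ND6 RNA, and neither was called. FASTK was at 732, 833 and 748 in DMSO and at 632, 1068 and 785 in MB1-47 (0.07, adjusted p = 0.79), with overlapping groups. GRSF1 went from 7318 ± 305 to 6611 ± 339 (SD, n = 3), a change of -0.15 ± 0.08 (adjusted p = 0.18) in which the groups did not overlap. MT-ND6 had the largest fall of the 13 mRNAs. Only the mRNAs of these factors were measured, and their part in the change of MT-ND6 was not tested.

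The genes for cutting, tailing and degrading mitochondrial RNA all fell. ELAC2, which cuts at the 3′ ends of tRNAs, was at 3267, 2848 and 2739 in DMSO and at 1531, 1758 and 1549 in MB1-47 (-0.87 ± 0.11, adjusted p = 0.0001). PNPT1 and SUPV3L1, the exonuclease and the helicase of the complex that degrades mitochondrial RNA, changed by -0.79 ± 0.13 and -0.71 ± 0.11 (adjusted p = 0.00056 for both). MTPAP, the poly(A) polymerase, went from 2381 ± 191 to 1438 ± 287 (SD, n = 3; -0.74 ± 0.14, adjusted p = 0.0017). The groups did not overlap in any of these 4 genes.

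Of the factors for rRNA and ribosome assembly, MTERF3 fell from 1531 ± 85.9 to 1032 ± 95.6 (SD, n = 3; -0.57 ± 0.12, adjusted p = 0.0028). TFB1M, which methylates the small rRNA, was not called (-0.27 ± 0.26, adjusted p = 0.45), nor was MTERF4 (-0.10, adjusted p = 0.59). TFB1M values varied widely within the groups, from 415 to 715 in DMSO and from 358 to 644 in MB1-47.

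Promoters were examined for the nuclear members, because nuclear respiratory factor 1 (NRF1) and ETS-family factors are known to act at several of them. RefSeq promoters (GRCh38.p14, 300 bases around a start) were found for 24 of the 27 nuclear genes, in 28 entries, and none was matched for MTERF3, TWNK and FASTKD5. The core of the NRF1 motif, CGCNTGCG, searched like all motifs here on both strands, was found in 6 of the 24 genes (MTPAP, POLG2, POLRMT, TFAM, TFB1M and TFB2M). It was in 6 of the 28 entries, and in 10.0% of 35116 promoters of all genes. The ETS motif CCGGAAGT was found in 6 genes (ELAC2, MTERF1, MTERF4, POLRMT, SSBP1 and TEFM), in 8 of the 28 entries and in 4.14% of all promoters. The SP1 motif GGGGCGGGG was found in 3 genes and 3 entries (15.7% of all promoters), the YY1 motif AAGATGGCG in 3 genes and 4 entries (1.75%) and the E-box CACGTG in 0 (7.26%). Entries of the same gene can overlap, so the same ETS site of SSBP1 and the same YY1 site of SLIRP were counted repeatedly among the entries. The letters for NRF1 and YY1 are shorter than those of a first search and were shortened after its result was known, which raised the counts for both. A match is a description and not a binding site, and no match says only that these letters are not in this window.

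The promoters of TFAM and POLRMT are printed because both genes start mitochondrial transcription and both fell. Capitals mark the NRF1 core motif, at position 189 of the TFAM promoter (chr10:58385160-58385459, plus strand) and from position 228 of the POLRMT promoter (chr19:633488-633787, minus strand), where 2 matches overlap.
TFAM promoter: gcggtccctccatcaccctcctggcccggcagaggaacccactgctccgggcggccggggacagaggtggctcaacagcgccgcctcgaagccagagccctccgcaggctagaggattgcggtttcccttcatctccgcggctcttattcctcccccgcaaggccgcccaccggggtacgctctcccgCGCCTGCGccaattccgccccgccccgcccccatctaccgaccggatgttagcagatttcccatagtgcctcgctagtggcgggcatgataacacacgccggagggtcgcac
POLRMT promoter: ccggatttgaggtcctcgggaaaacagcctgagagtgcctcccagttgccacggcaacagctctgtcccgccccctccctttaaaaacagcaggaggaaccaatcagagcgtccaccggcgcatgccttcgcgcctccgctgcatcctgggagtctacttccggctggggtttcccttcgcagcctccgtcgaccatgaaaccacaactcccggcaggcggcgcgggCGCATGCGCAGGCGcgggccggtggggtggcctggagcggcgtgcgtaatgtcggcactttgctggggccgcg
Of the 6 genes with the core motif, TFAM, TFB2M, POLRMT and MTPAP fell and POLG2 and TFB1M were not called. Genes without a match also went both ways. Among them SLIRP, TBRG4 and ELAC2 fell, and FASTK, POLG and GRSF1 were not called. A part of the motif in these changes was not tested.

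Regulators that act on such promoters were called in both directions. Of 11 listed, 10 were tested, of which 3 were lower, 4 higher and 3 not called (median 0.08), where 19.8% of all genes were called lower and 18.3% higher. PPRC1 and PPARGC1B, both coactivators related to PGC-1α, fell from 3228 ± 562 to 1212 ± 239 (-1.42 ± 0.17, adjusted p = 6.2e-05) and from 1816 ± 145 to 793 ± 45.4 (-1.19 ± 0.12, adjusted p = 1.9e-05). The transcription factors CREB1 (0.75 ± 0.13, adjusted p = 0.00096) and SP1 (0.65 ± 0.09, adjusted p = 0.00024) rose. NRF1 was at 1377, 1335 and 1204 in DMSO and at 1308, 1524 and 1297 in MB1-47 (0.07 ± 0.12, adjusted p = 0.66), with overlapping groups. GABPA, an ETS-family subunit, rose by 0.26 ± 0.09 (adjusted p = 0.046), and ESRRA was not called (-0.13, adjusted p = 0.48). GABPB1 fell (-0.52 ± 0.12, adjusted p = 0.0058) and GABPB2 rose (0.53 ± 0.10, adjusted p = 0.0019), both named after their values were seen. PPARGC1A, the gene of PGC-1α, was below the filter, with no value above 3 in any library.

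Other genes that serve the mitochondrial genome were counted from lists by function. Of 33 genes for processing and modifying mitochondrial tRNA and rRNA, 18 were lower, 2 higher and 13 not called (median -0.40), where 19.8% of all genes were called lower and 18.3% higher. The largest changes were in MRM1 and MRM3, which methylate the large rRNA (-1.99 ± 0.21 and -1.38 ± 0.21), in the pseudouridine synthase PUS1 (-1.61 ± 0.15), and in HSD17B10, a subunit of the RNase P that cuts at the 5′ ends of tRNAs (-1.15 ± 0.13). Both genes called higher, named after their values were seen, were REXO2 (0.74 ± 0.12), which degrades very short RNAs, and ANGEL2 (0.60 ± 0.11).

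Of 23 genes for DNA maintenance and nucleotide supply, 9 were lower, 3 higher and 11 not called (median -0.22), against the same 19.8% and 18.3% of all genes. UNG, which removes uracil from DNA, went from 4911 ± 222 to 839 ± 11.8 (SD, n = 3; -2.55 ± 0.09, adjusted p = 1.8e-07), and the flap nuclease FEN1 changed by -1.54 ± 0.09. Both also serve nuclear DNA. ATAD3A, an inner membrane ATPase with a near-identical paralog, changed by -1.23 ± 0.12 and is uncertain for that reason. TK2, the mitochondrial thymidine kinase, rose from 537.02 ± 66.9 to 1307 ± 217 (1.28 ± 0.16, adjusted p = 9.3e-05), and the others called higher, named after their values were seen, were PRIMPOL (0.50 ± 0.13) and the nucleotide carrier SLC25A36 (0.65 ± 0.10).

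Of 16 mitochondrial translation factors, 6 were lower, 2 higher and 8 not called (median -0.32), against 19.8% and 18.3% of all genes. The elongation factors TUFM (-0.86 ± 0.08), TSFM (-0.92 ± 0.16) and GFM1 (-0.68 ± 0.09) fell. OXA1L, which inserts newly made mitochondrial proteins into the inner membrane, rose from 1066 ± 159 to 1626 ± 183 (SD, n = 3; 0.61 ± 0.14, adjusted p = 0.0052). The other factor called higher, named after its values were seen, was the initiation factor MTIF3 (0.53 ± 0.19, adjusted p = 0.044), whose groups overlapped.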

How the data were processed

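Per the labels, RNA of DND41 cells was sequenced as strand-specific libraries, and the deposited table holds normalized counts per gene symbol, handled as a non-negative signal. The submitters' processing notes name kallisto 0.44.0, DESeq and the build GRCh38.p13; annotation and strand setting: not given in the sources used here. The deposited values are not whole: 61.0% to 64.8% of values between 2 and 15 lay within 0.1 of a whole multiple of the best step. Whole reads were therefore not recovered and count-based tests were not run.

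limma 3.58.1 (R 4.3.3, intensity trend) was run on log2(value + 1) for the 13465 of 17202 genes whose mean over the 6 libraries reached 10, with Benjamini-Hochberg adjustment and a threshold of 0.05. Such changes understate those of low genes. The limma fit, but no other step, was checked on simulated data. Ratios were tested with exact permutation tests (scipy 1.17.1), and nuclear copies were aligned with Biopython 1.88. Sequences and positions came from GENCODE 29 on GRCh38.

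The members, lists and tests were chosen with earlier results of these data known. Genes named are all 40 listed genes, up to 4 genes per other list with the largest change past the threshold and a mean of at least 50, NRF1, GABPA, ESRRA and PPARGC1A, and nuclear copies with a mean of at least 50. Alternatives were other pseudocounts, filters and scalings (trimmed mean of M values, quantile, equal totals), no trend, a replicate block and each library left out. No library or value column was excluded. A marker of another cell type is not reported here.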

Additional observations from a re-analysis of the deposited data

How the results depend on the processing

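Across 15 alternative fits, 28 of the 39 genes kept their direction and call in every fit and 11 did not, and leaving out 1 library moved no gene's fold change by over 1.5 times. The 13 mitochondrial mRNAs were all called lower in every fit except quantile normalization and limma without a trend, where 11 were. Of the nuclear genes, 14 to 16 were called lower and 1 higher. Signs turned for MT-CO1 under quantile normalization (0.17), for MGME1 with equal totals (0.060) and without DMSO replicate 2 (0.054; with each library left out, -0.21 to 0.054), for MTERF4 with equal totals (0.028), for FASTK without MB1-47 replicate 2 (-0.13; leave-one-out range to 0.25), and for FASTKD5 without DMSO replicate 2 (-0.055) or MB1-47 replicate 1 (-0.025; range to 0.053). FASTKD5 also reached 0.13 with equal totals. The cause was not tested. Under quantile normalization the summed share of the 13 mRNAs differed by -0.227 percentage points (-0.444 as deposited) and MT-CO2 over MT-CO1 by -0.37. With 1 library left out, MT-CO2 over MT-CO1 ran from -0.057 to 0.056 and MT-ATP8 over MT-CO2 from -0.25 to 0.015. Equal totals moved the median of all genes from 0.02 to 0.15 and the split from 2667 lower and 2458 higher to 2063 and 3335; the median of the 13 mRNAs was then -0.56 and that of the nuclear genes -0.43.

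Same-numbered libraries had correlated deviations of only 0.0224, 0.0566 and 0.00724, so the numbers were not taken as pairs. With the replicate number as a block, 13 mitochondrial and 16 nuclear genes were called lower and 1 higher, and 2715 and 2531 of all genes. Depth is unknown, so no counting limit can be given for low genes such as MTERF2. edgeR and DESeq2 were not run.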

Other observations

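The mitochondrial rRNAs were not analysed here, so copies of the large rRNA gene MT-RNR2 have no change of their source to be set against. These nuclear copies, chosen after their values were seen, changed in both directions. MTRNR2L12, 95.1% identical to MT-RNR2 over its aligned length, was at 11192, 21263 and 11238 in DMSO and at 32935, 30138 and 34461 in MB1-47 (1.23 ± 0.20 SE, limma, adjusted p = 0.00066). MTRNR2L8 (93.1% identical) rose by 0.68 ± 0.21 (adjusted p = 0.023), although DMSO replicate 2, at 6924, lay above MB1-47 replicate 2, at 6532. MTRNR2L6 (85.0% identical) fell by 1.45 on the log2 scale (adjusted p = 0.0011), and MTRNR2L1 (0.03) and MTRNR2L10 (-0.45, adjusted p = 0.21) were not called. DMSO replicate 2 was the lowest DMSO library for 11 of the 13 mitochondrial mRNAs and the highest for the other 2, MT-ND5 and MT-ND6. In all 5 copies it was the highest of the DMSO libraries. How many reads of MT-RNR2 itself these copies took was not tested.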
